A study of Rattus norvegicus with 8 samples.

Results

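The anti-Rtl1 miRNAs are the small RNAs cut from 5 hairpins, miR-431, miR-433, miR-127, miR-434 and miR-136, that lie close together in the imprinted Dlk1-Dio3 region. They were picked by a rule on names: every deposited row with a rat name of one of these 5 hairpins, either arm, summed per mature name. The rule uses no values, but it was set with earlier results of these data known. The rule gave 9 of 1273 mature names (415 of them rat names), each from 1 row, and 8 of the 9 had been listed beforehand. The other one, miR-433-5p, met the same rule.

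The libraries came from rat intervertebral disc cells, through the RNA of their exosomes, which are vesicles shed by a cell and carrying RNA and protein. One group, NPC, was 4 small RNA libraries of exosomes from nucleus pulposus cells, which fill the soft centre of a disc, and the other, NPPC, was 4 libraries of exosomes from the progenitor cells of that tissue. No treatment, strain or age was labelled, and nothing in the labels ties a library to its own culture or animal, so the p-values reflect only how these libraries spread, which may be technical. The series title places the progenitor exosomes in a hydrogel for discs after surgery, and the contrast tested here was NPPC over NPC.

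The Dlk1-Dio3 region is expressed from one parental copy per gene. The paternal copy expresses Dlk1, Rtl1 and Dio3, and the maternal copy expresses long noncoding RNAs, among them Meg3 and the transcript antisense to Rtl1, from which these hairpins are cut. Because they are read from the strand opposite the Rtl1 coding sequence, the mature miRNAs match it over their whole length and can direct its cleavage. Rtl1 encodes a protein derived from a retrotransposon, known from the placenta and from skeletal muscle. Each hairpin can give a miRNA from its 5p arm and one from its 3p arm, and one arm is usually kept over the other.

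In the deposited table the 5 hairpins lay on the plus strand of chromosome 6, within 5423 bases, in deposited coordinates whose genome build was not given in the sources used here. They ran in the order miR-431 (133711425 to 133711561), miR-433 (133712325 to 133712454), miR-127 (133713427 to 133713541), miR-434 (133715370 to 133715461) and miR-136 (133716756 to 133716847). Between them were 763, 972, 1828 and 1294 bases. In RefSeq's GRCr8 annotation all 5 hairpins fell within the bounds of the Rtl1 gene.

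The sequences printed in the rows are given here because each row prints 1 form of its miRNA, called the counted form below. The values do not show whether reads of other forms were counted with it. For a pair of 5p arms the printed form starts at another base than the reference. Capitals mark the seed, bases 2 to 8, which sets most target pairing.
rno-miR-431: tGTCTTGCaggccgtcatgc
rno-miR-433-5p: tACGGTGAgcctgtcattattc
rno-miR-433-3p: aTCATGATgggctcctcggtgt
rno-miR-127-5p: gAAGCTCAgagggctctgattc
rno-miR-127-3p: tCGGATCCgtctgagcttggct
rno-miR-434-5p: gCTCGACTcatggtttgaacc
rno-miR-434-3p: tTTGAACCatcactcgactcct
rno-miR-136-5p: aCTCCATTtgttttgatgatgg
rno-miR-136-3p: cATCATCGtctcaaatgagtct

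No seed was shared by 2 of the 9 forms (0), and 0 other rat names in the table carried any of these seeds, so by seed they are 9 separate miRNAs. Of the 9 counted forms, 5 equalled the reference sequence that the table gives beside them, and miR-431 and miR-136-5p lacked only the last base. The table's reference for miR-127-5p starts 2 bases earlier than the counted form, and that for miR-434-5p starts 1 base earlier. Both shifts move the seed, as the references show with their own seeds in capitals.
rno-miR-127-5p, reference: cTGAAGCTcagagggctctgatt
rno-miR-434-5p, reference: aGCTCGACtcatggtttgaacca

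All 4 hairpins with a counted form on each arm had a 3p form equal to its reference, so each change of form was on a 5p arm. RefSeq's table held 7 of the 9 mature sequences, each equal to the table's reference. The arms of miR-434 resembled each other: they shared 2 runs of 8 bases, shown in capitals, where the longest run shared by the arms of the other hairpins was 5 bases.
rno-miR-434-5p, shared runs: gCTCGACTCatggTTTGAACC
rno-miR-434-3p, shared runs: TTTGAACCatcaCTCGACTCct

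No member shared its sequence with another row (0 of 9), and the middle of none (bases 3 to 18) lay inside another row's sequence (0 of 9), although 284 of 1512 rows in the table shared theirs. All 72 member values were whole numbers within 1e-09. Of the 72 values 7 were 0, and the smallest above 0 was 6 counts.

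Libraries held 329011 to 681591 counts in NPC and 819845 to 1416940 in NPPC exosomes, so every NPPC library was deeper. Levels are counts per 1000000 of a library's total after TMM scaling (CPM). On that scale 3 counts stood at 4.95 to 5.77 CPM in NPC and 2.37 to 3.62 CPM in NPPC libraries. Other miRNAs of the Dlk1-Dio3 region had lowest values above 0 of 8.25 to 9.61 CPM in NPC and 3.95 to 6.03 CPM in NPPC libraries. A listed 0 may thus stand for reads below that level, and 3 counts is no upper limit. In the whole table, though, 402 of 5804 values above 0 were under 5 counts. NPC replicate 1 stood apart, with a TMM factor of 1.64 where the others lay between 0.872 and 1.01. Across 278 rat names tested, which are not independent, its deviation from the other NPC libraries had a Spearman correlation of 0.837 with GC content, while the same measure was -0.528, -0.750 and -0.563 for NPC replicates 2 to 4, whose comparison set holds replicate 1, and ran from -0.324 to 0.384 in the NPPC libraries. Of the marker lists fixed for this tissue, the cartilage and disc miRNAs miR-140 and miR-455 summed to 11437 to 16115 CPM in NPC and 8621 to 9260 CPM in NPPC exosomes, with 4 of 4 tested and 0 past the threshold. Most of that sum was miR-140-3p, at a mean of 11410 CPM in NPC and 7232 CPM in NPPC exosomes, and 2 of the 4 names were higher in NPPC. Of the marker lists of other cells, matched by rat name, 0 names passed the threshold. Their summed levels in NPC and then NPPC libraries were as follows: leukocyte 33.4 to 362 CPM and 319 to 448 CPM (3 of 5 tested), erythrocyte 348 to 555 CPM and 182 to 1392 CPM (3 of 3), neural 750.1 to 1075 CPM and 799 to 828 CPM (2 of 4), skeletal muscle 0 to 42.9 CPM and 26.0 to 57.9 CPM (1 of 3). miR-223-3p, a leukocyte marker, had no rat-named row, and under its mouse name it averaged 55.3 CPM in NPC and 56.5 CPM in NPPC exosomes. The neural sums exceeded the mean level of every member but miR-127-3p. Most of those sums was miR-128-3p alone, which averaged 860 CPM in NPC and 742 CPM in NPPC exosomes. The part of these other cells in the members' values was not tested. Fewer vesicles of one source and fewer miRNA copies per vesicle cannot be told apart in such libraries.

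The 9 miRNAs together took a small share of all counts. In NPC exosomes it was 0.762%, 0.374%, 0.272% and 0.391% for replicates 1 to 4, and in NPPC exosomes 0.393%, 0.334%, 0.306% and 0.279%. NPC replicate 1 held the highest share and the other 7 libraries lay within 0.272% to 0.393%, with the groups overlapping. NPC libraries averaged 0.450% ± 0.215 (SD, n = 4) and NPPC libraries 0.328% ± 0.0489 (SD, n = 4), and the NPC mean was 0.346% without replicate 1. The Wilson 95% interval for NPC replicate 1 was 0.733% to 0.792%, which covers counting error only, as reads of one molecule cannot be told from reads of several.

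miR-127-3p made up most of the members' counts, with 61.7% to 82.4% in NPC and 59.8% to 66.2% in NPPC libraries. miR-434-3p followed with 8.34% to 21.7% and 16.2% to 22.1%, and miR-136-3p with 1.56% to 9.59% and 8.81% to 10.4%. NPC replicate 1 held the lowest NPC shares of miR-434-3p and miR-136-3p and the highest of miR-127-3p. Among the 415 rat names miR-127-3p ranked 45th by mean CPM, miR-434-3p 84th, miR-136-3p 118th, miR-433-3p 159th and miR-433-5p 347th.

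The order of the levels by group mean was the same in both groups: miR-127-3p, miR-434-3p, miR-136-3p, miR-433-3p, miR-127-5p, miR-434-5p, miR-431, miR-136-5p and miR-433-5p. A read covers a whole mature miRNA, so these levels need no scaling by length. In both groups the lowest library of miR-127-3p lay above the highest of miR-434-3p, and the lowest of miR-434-3p above the highest of miR-136-3p. In NPPC exosomes miR-136-3p also lay clear of miR-433-3p, and miR-136-5p clear of miR-433-5p. The other neighbours in the order overlapped between libraries.

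**Figure D1:**
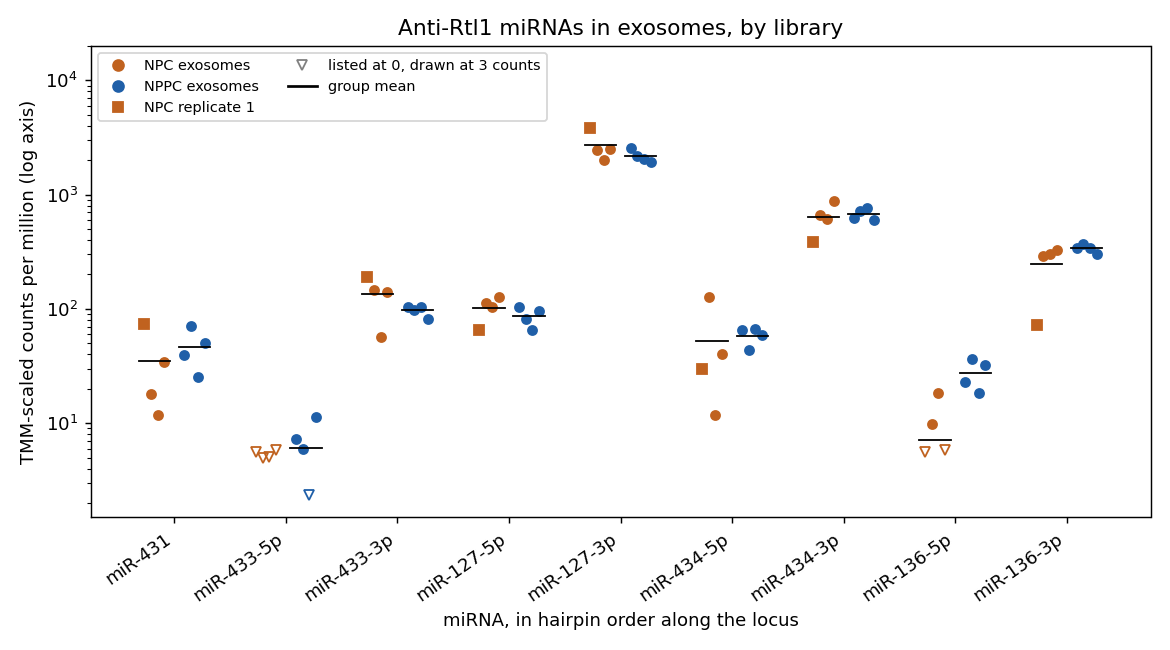
Level of each anti-Rtl1 miRNA in each library (y axis, TMM-scaled CPM, log axis), in hairpin order along the locus (x axis), for NPC and NPPC exosomes. Points are single libraries in order of replicate number, squares are NPC replicate 1, open triangles are libraries listed at 0 drawn at 3 counts, and lines are group means. miR-127-3p is highest throughout, and NPC replicate 1 lies at an end of the NPC range for miR-431, miR-433-3p, miR-127-5p, miR-127-3p, miR-434-3p and miR-136-3p.

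The members were then compared between the groups with edgeR's quasi-likelihood test (two-sided), fitted over 390 mature names with Benjamini-Hochberg adjustment. In that fit 0 of the 8 members that passed the low-count filter had an adjusted p under 0.05, where 0.256% of all names did. At an unadjusted p under 0.05 the count was also 0 of 8, where 10.5% of all names had one, and in 0 of 8 did the groups not overlap, where 10.8% of all names did so. miR-433-5p, too low for the filter, was not tested. Of the 8, 5 had a positive log2 fold change of NPPC over NPC and 3 a negative one, with a median of 0.13, where the median of all names tested was -0.038 and that of the 278 rat names tested, to which all members belong, was 0.19. By the DESeq2 Wald test and by limma-voom 0 members passed too, although DESeq2 gave no adjusted p for miR-136-5p, miR-431 and miR-434-5p. With the replicate number as a block the members' adjusted p lay between 0.412 and 0.749, and the number of all names past the threshold went from 1 to 0.

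miR-127-3p, the most abundant member, whose loss is known to disturb the vessels of the mouse placenta, stood at 3834, 2456, 2008 and 2492 CPM in NPC replicates 1 to 4. In NPPC replicates 1 to 4 it stood at 2570, 2162, 2049 and 1940 CPM. NPC replicate 1 was highest, and the other NPC libraries spanned nearly the same range as the NPPC libraries. NPC libraries averaged 2698 CPM (SD 789, n = 4) and NPPC libraries 2180 CPM (SD 275, n = 4), and the log2 fold change was -0.31 ± 0.22 (SE) with a 95% interval of -0.81 to 0.20 (edgeR, adjusted p = 0.591). Without NPC replicate 1 it was -0.078, with an interval of -0.38 to 0.23 (edgeR, adjusted p = 0.757). These values rest on 1193 to 2592 counts of miR-127-3p per library.

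The other arm of that hairpin, miR-127-5p, whose printed form starts 2 bases late, stood far lower. NPC replicates held 65.0, 112, 104 and 126.9 CPM, and NPPC replicates held 104, 80.9, 65.6 and 95.4 CPM. Here NPC replicate 1 was the lowest NPC library, whereas it was the highest one for miR-127-3p. The log2 fold change was -0.24 ± 0.29 (SE, edgeR, adjusted p = 0.698), and -0.40 with an interval of -0.88 to 0.084 without NPC replicate 1 (edgeR, adjusted p = 0.323).

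miR-434-3p, from the hairpin whose arms resemble each other, was next in level. It stood at 388, 659, 613 and 879 CPM in NPC and at 629, 723, 758 and 599 CPM in NPPC replicates 1 to 4. The NPC libraries held both the lowest and the highest value, and the NPPC libraries lay between them. NPC libraries averaged 634.5 CPM (SD 201, n = 4) and NPPC libraries 677 CPM (SD 75.3, n = 4), with a log2 fold change of 0.094 ± 0.25 (SE) and an interval of -0.49 to 0.67 (edgeR, adjusted p = 0.869). The direction turned without NPC replicate 1 (-0.069), with total count scaling (-0.085) and with rat names alone (-0.0026).

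miR-434-5p, whose printed form starts 1 base late, was spread unevenly among NPC libraries, with 29.7, 127.1, 11.8 and 40.4 CPM against 65.1, 43.4, 66.4 and 59.0 CPM in NPPC libraries. These NPC values came from 16, 77, 7 and 21 counts. All 4 NPPC libraries fell inside the NPC range. The log2 fold change was 0.16 ± 0.64 (SE), with an interval of -1.30 to 1.62 (edgeR, adjusted p = 0.904), and turned to -0.026 without NPC replicate 1, to -0.036 with total count scaling and to -0.11 without NPC replicate 3. Leaving out NPC replicate 2 gave 1.10 (edgeR, adjusted p = 0.515).

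miR-136-3p stood at 72.4, 292, 299.6 and 327 CPM in NPC and at 342, 373, 341 and 302 CPM in NPPC replicates 1 to 4. NPC replicate 1 was far below the other 7 libraries, and the remaining NPC libraries overlapped the NPPC range only through NPPC replicate 4. NPC libraries averaged 248 CPM (SD 118, n = 4) and NPPC libraries 339.6 CPM (SD 29.1, n = 4), and the log2 fold change was 0.45 ± 0.42 (SE) with an interval of -0.50 to 1.41 (edgeR, adjusted p = 0.633). Without NPC replicate 1 it was 0.16, with an interval of -0.14 to 0.47 (edgeR, adjusted p = 0.487).

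miR-136-5p, whose mature sequence has the lowest GC content of the 9 (36.4%), was listed at 0 in NPC replicates 1 and 4 and at 6 and 11 counts in NPC replicates 2 and 3, or 9.90 and 18.5 CPM. NPPC libraries held 19, 37, 23 and 37 counts, or 22.9, 36.5, 18.2 and 32.1 CPM. NPC replicate 3 and NPPC replicate 3 overlapped. Its log2 fold change was 1.90 ± 1.06 (SE), the highest of the 8, with an interval of -0.52 to 4.32 (edgeR, adjusted p = 0.504). It stayed positive in all 20 alternatives that gave a value, between 1.45 with a GC correction and 3.01 without NPC replicate 3, and passed in 0 of them. In 2 of the 20 the unadjusted p was under 0.05, lowest at 0.0284 by limma-voom. The alternatives reuse the same few counts, so their shared direction is no separate support. In the libraries listed at 0, 3 counts would be 5.57 CPM in NPC replicate 1 and 5.77 CPM in NPC replicate 4. The lowest values above 0 of the region's other miRNAs there were 9.28 and 9.61 CPM, so reads below those may have gone unlisted.

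Summed over its arms, the miR-136 hairpin stood at 72.4 to 327 CPM in NPC and at 334 to 409 CPM in NPPC exosomes, so the groups did not overlap. The same held for 5 of the 43 hairpins of the region (11.6%), and the other 4 member hairpins overlapped. This sum was looked at after the arms' values were seen and was not tested.

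miR-433-3p stood at 191, 147, 57.2 and 140 CPM in NPC and at 105, 98.6, 104 and 82.4 CPM in NPPC replicates 1 to 4. In NPC exosomes 3 of 4 libraries lay above every NPPC library, and NPC replicate 3, with 34 counts, lay below every one. Its log2 fold change was -0.46 ± 0.36 (SE), with an interval of -1.27 to 0.36 (edgeR, adjusted p = 0.596). It was negative in 21 of 21 alternatives and ran from -0.81 with total count scaling to -0.22 without NPC replicate 1. Without NPC replicate 3 it was -0.65 (edgeR, adjusted p = 0.255), with an unadjusted p of 0.0248. That setting leaves out the only NPC library below the NPPC range. The alternatives reuse the same libraries, so their shared direction is no separate support.

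miR-433-5p was listed at 0 in all 4 NPC libraries and in NPPC replicate 3. The other NPPC libraries held 6, 6 and 13 counts, or 7.23, 5.92 and 11.3 CPM for replicates 1, 2 and 4. Over the 4 libraries NPPC exosomes held 25 counts of miR-433-5p. The lowest values above 0 of the region's other miRNAs were 8.25 to 9.61 CPM in the NPC libraries. Only NPPC replicate 4 lay above those values. The listed 0 of the NPC libraries therefore does not set them apart from NPPC replicates 1 and 2, and no test was made.

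miR-431, known for a part in skeletal muscle regeneration, stood at 74.3, 18.2, 11.8 and 34.6 CPM in NPC and at 39.8, 71.0, 25.3 and 50.3 CPM in NPPC replicates 1 to 4. NPC replicate 1 was above all other libraries, and the other NPC libraries reached from below the NPPC range into it. The NPC values came from 40, 11, 7 and 18 counts. The log2 fold change was 0.43 ± 0.61 (SE) with an interval of -0.97 to 1.83 (edgeR, adjusted p = 0.740), and -0.040 with total count scaling. Without NPC replicate 1 it was 1.13, with an interval of -0.051 to 2.31 (edgeR, adjusted p = 0.268).

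**Figure D2:**
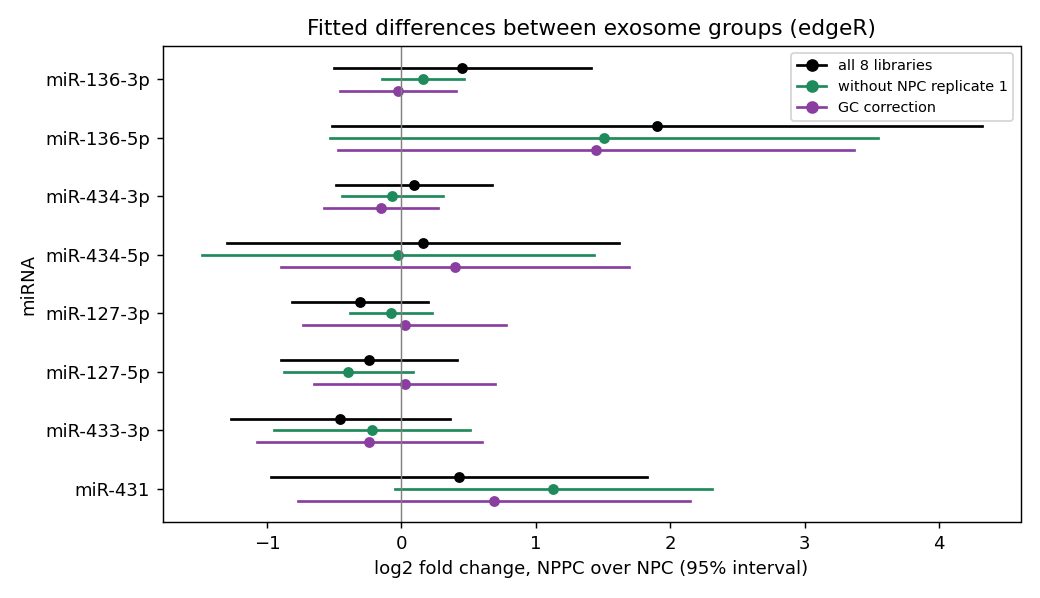
Log2 fold change of NPPC over NPC exosomes by edgeR (x axis, points) with its 95% interval (lines) for the 8 anti-Rtl1 miRNAs tested (y axis), with all 8 libraries, without NPC replicate 1 and with a GC correction. All intervals include 0, and those of miR-127-3p and miR-136-3p are narrower without NPC replicate 1.

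The place of NPC replicate 1 differed from member to member along with GC content. On the log2 CPM scale it lay above the mean of the other NPC libraries by 1.79 for miR-431 (GC 60%), 0.84 for miR-433-3p (54.5%) and 0.73 for miR-127-3p (59.1%). It lay below that mean, at -2.04 for miR-136-3p (40.9%), -1.81 for miR-136-5p (36.4%) and -0.86 for miR-434-3p (45.5%). Between these stood miR-434-5p (52.4%) at -0.42 and miR-127-5p (54.5%) at -0.79, whose GC content equals that of miR-433-3p. The -1.81 of miR-136-5p rests on a listed count of 0. NPC replicate 4, also listed at 0 for miR-136-5p, deviated from the other NPC libraries by the same -1.81. After a GC correction the log2 fold changes were 0.025 for miR-127-3p, 0.024 for miR-127-5p, -0.023 for miR-136-3p and -0.15 for miR-434-3p, each of the opposite sign to that without it.

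**Figure D3:**
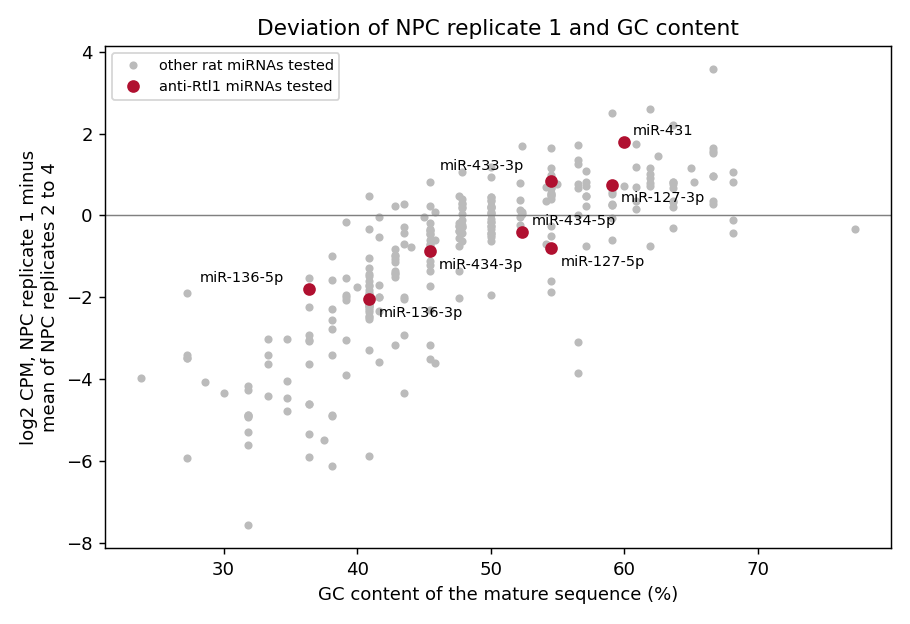
Difference on the log2 CPM scale between NPC replicate 1 and the mean of NPC replicates 2 to 4 (y axis) against the GC content of the mature sequence (x axis, percent) for 278 rat miRNAs tested. Members are the named points: miR-431, miR-433-3p and miR-127-3p lie above 0. The others, miR-136-3p, miR-136-5p, miR-434-3p, miR-434-5p and miR-127-5p, lie below it, with miR-127-5p at the same GC content as miR-433-3p. The point of miR-136-5p rests on a listed count of 0.

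The ratio of the arms is taken within a library and so does not depend on scaling between libraries. The 3p arm was the higher one in every library for miR-127, miR-434, miR-136 and miR-433. For miR-127 the 3p counts were 59.0, 21.9, 19.2 and 19.6 times the 5p counts in NPC replicates 1 to 4 and 24.8, 26.7, 31.2 and 20.3 times in NPPC replicates 1 to 4. NPC replicate 1 stood alone, and the others lay between 19.2 and 31.2. On the scale log2((3p + 0.5)/(5p + 0.5)) the means were 4.71 ± 0.77 (SD, n = 4) and 4.66 ± 0.26 (SD, n = 4), a difference of -0.048 (two-sided exact permutation test over 70 arrangements, p = 0.971) and an adjusted p over the 3 hairpins of 0.971. Without NPC replicate 1 the difference turned to 0.34, with an exact permutation p of 0.0857, adjusted 0.129.

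For miR-434 the 3p counts were 13.1, 5.18, 52.0 and 21.8 times the 5p counts in NPC and 9.67, 16.7, 11.4 and 10.2 times in NPPC replicates 1 to 4. The NPC libraries spread on both sides of the NPPC libraries. The mean log2 ratios were 4.01 ± 1.36 (SD, n = 4) and 3.54 ± 0.35 (SD, n = 4), a difference of -0.48 (two-sided exact permutation p = 0.543, adjusted 0.814), which turned to 0.055 without NPC replicate 3 and was -1.02 without NPC replicate 2.

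For miR-136 the 5p arm was listed at 0 in NPC replicates 1 and 4, against 39 and 170 counts of the 3p arm. In NPC replicates 2 and 3 the 3p counts were 29.5 and 16.2 times the 5p counts, and in NPPC replicates 1 to 4 they were 14.9, 10.2, 18.8 and 9.41 times. Summed over libraries, miR-136-3p and miR-136-5p held 564 and 17 counts in NPC and 1442 and 116 counts in NPPC exosomes, which are ratios of 33.2 and 12.4. The mean log2 ratios were 5.86 ± 1.96 (SD, n = 4) and 3.66 ± 0.46 (SD, n = 4), overlapping through NPC replicate 3 at 3.96 and NPPC replicate 3 at 4.20. The difference was -2.21 (two-sided exact permutation p = 0.0571, adjusted 0.171), where the smallest p that 70 arrangements allow is 0.0286. Because of the counts of 0 its size depends on the pseudocount: it was -1.70 with 1 count and -0.50 with 5 counts (exact permutation p = 0.0571 and 0.371). Without NPC replicate 3 it was -2.84 with an exact permutation p of 0.0286, adjusted 0.0857, and without NPC replicate 4 it was -1.36. The p and adjusted p without NPC replicate 3 are the lowest that this setting allows with the other hairpins' p as they were. The log2 ratios of 6.30 and 8.41 in NPC replicates 1 and 4 rest on the 5p counts of 0. They, and the summed NPC ratio of 33.2, would be lower if low reads went unlisted there. The difference therefore cannot be told apart from an effect of such unlisted reads.

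miR-433 was not among the hairpins set for this test. Its 3p counts were 103, 89, 34 and 73 in NPC libraries, with 0 counts of the 5p arm, and 87, 100, 132 and 95 in NPPC libraries, with 6, 6, 0 and 13 counts of the 5p arm. Over the NPPC libraries the 3p arm held 16.6 times the counts of the 5p arm. miR-431 has no arm in its rat name, and its counted form lies on the 5p arm. The 3p arm of that hairpin appeared under a mouse name, outside the rule, with 11 counts in NPC replicate 1, 5, 7 and 10 counts in NPPC replicates 2 to 4, and 0 in the other 4 libraries. There the 5p arm was the higher one in every library, with 7 to 72 counts, unlike in the other 4 hairpins.

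**Figure D4:**
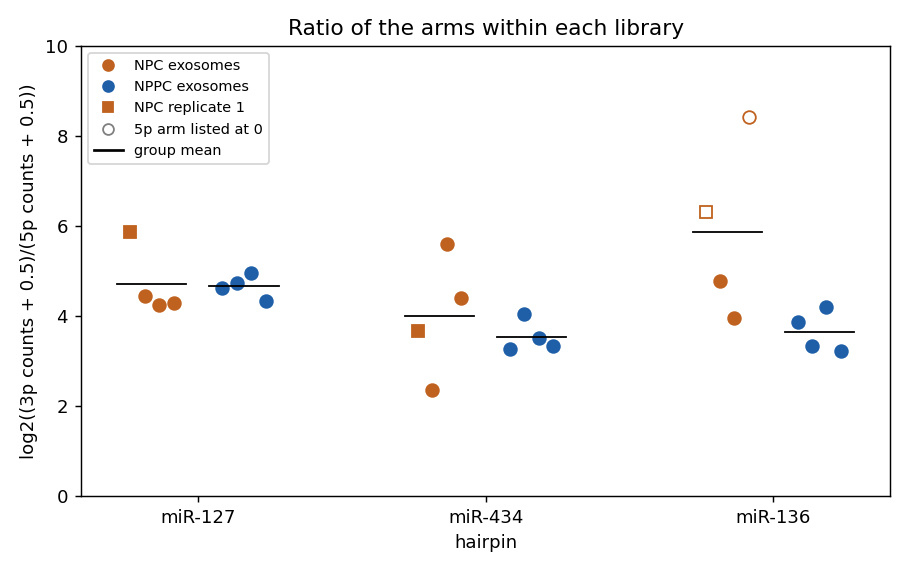
Log2 ratio of 3p to 5p counts, each with 0.5 added (y axis), for the hairpins miR-127, miR-434 and miR-136 (x axis) in each library. Filled symbols have a 5p count above 0, open symbols a 5p count of 0, squares are NPC replicate 1, and lines are group means. All ratios are above 0, and the NPC libraries spread more widely than the NPPC libraries.

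Within the Dlk1-Dio3 region the members were compared with a list of its other miRNAs: those on either side of the anti-Rtl1 hairpins, with the large cluster from miR-379 to miR-410. Of 47 hairpin names on that list 38 were found, as 59 mature names, 11 of them upstream of miR-431 and 48 downstream of miR-136. By mean CPM with the arms of a hairpin summed, miR-127 ranked 1st and miR-434 2nd of the 43 hairpins of the region, miR-136 7th, miR-433 15th and miR-431 25th. miR-127 averaged 2800 CPM among NPC libraries (SD 768, n = 4) and 2266 CPM among NPPC libraries (SD 284, n = 4), and its lowest library in each group lay above the highest of any other hairpin of the region. The next, miR-434, overlapped miR-541, the highest of the other list, in both groups. The members held 41.9% to 61.0% of the region's CPM in NPC and 40.5% to 43.6% in NPPC libraries, with 61.0% in NPC replicate 1. The means were 49.5% ± 8.15 (SD, n = 4) and 42.6% ± 1.43 (SD, n = 4), and the NPC mean was 45.7% without replicate 1.

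**Figure D5:**
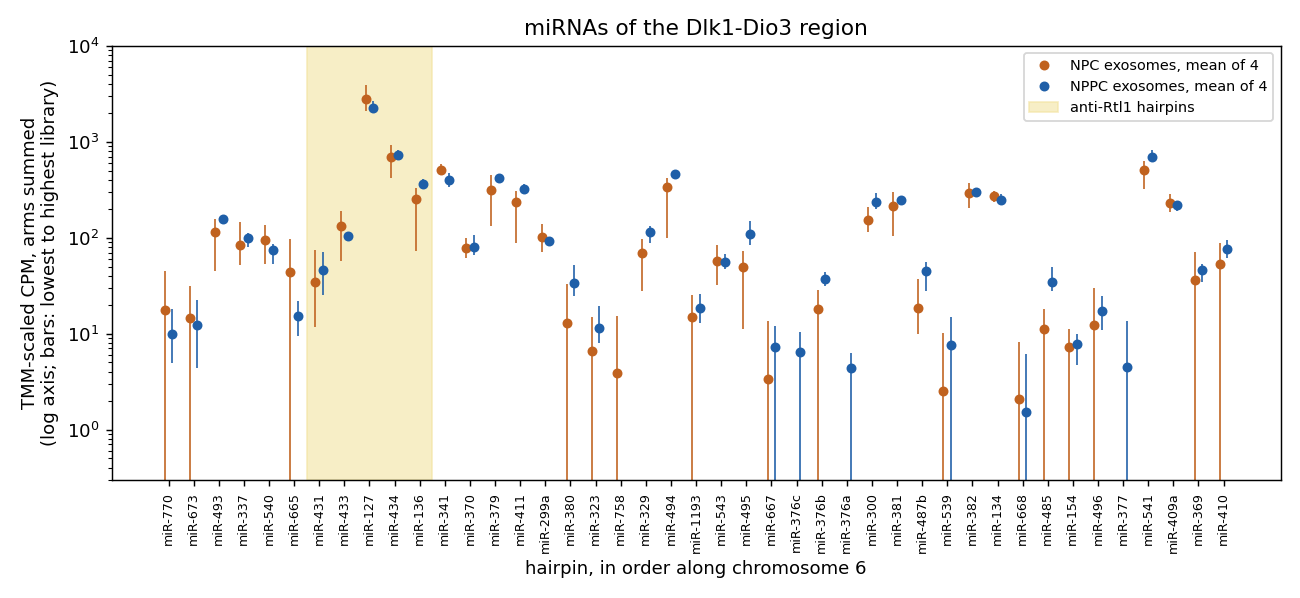
Level of each hairpin of the Dlk1-Dio3 region, arms summed (y axis, TMM-scaled CPM, log axis), in order along chromosome 6 (x axis). Points are means of 4 libraries, bars run from the lowest to the highest library (to the foot of the axis where the lowest is 0), groups at 0 in all libraries have no point, and the shaded band holds the anti-Rtl1 hairpins. miR-127 is the highest hairpin of the region in both groups.

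In the other list, 0 of 35 names tested had an adjusted p under 0.05 by edgeR. At an unadjusted p under 0.05 there were 3 higher in NPPC (4.1% of all names) and 0 lower (6.41% of all names). In 5 of 35 the NPPC libraries lay above all NPC libraries (6.15% of all names), and in 0 below (4.62% of all names). Among the 278 rat names tested, to which the whole list belongs, 16 were higher and 9 lower at that p. In 20 of the 278 the NPPC libraries lay above all NPC libraries, and in 9 below. The median log2 fold change was 0.28 over the 35 names of the list, with 23 positive, beside 0.19 over all 278 rat names tested, with 167 positive. The list's median was 0.11 without NPC replicate 1. The 3 with such a p, named here after their values were seen, were miR-411-3p (0.86), miR-300-3p (0.64) and miR-487b-3p (1.28), and the 5 without overlap, also named afterwards, were miR-376b-3p, miR-411-3p, miR-493-5p, miR-494-3p and miR-495. Of the 4 most abundant, miR-541-5p averaged 503 CPM among NPC libraries (SD 140.1, n = 4) and 693 CPM among NPPC libraries (SD 92.4, n = 4; log2 fold change 0.46), and miR-341 at 505 ± 52.2 and 397 ± 56.5 CPM (SD, n = 4 each, log2 fold change -0.35). miR-494-3p stood at 339 ± 159 and 461 ± 23.6 CPM (SD, n = 4 each, 0.44), and miR-379-5p at 271 ± 109 and 342 ± 12.2 CPM (SD, n = 4 each, 0.34). The adjusted p of these 4 by edgeR lay between 0.494 and 0.644. No test of a difference between the lists was run.

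Over the 8 libraries, the rat names whose log2 CPM was most like that of miR-127-3p, among 163 with a mean of at least 100 CPM, were miR-423-3p (Pearson r = 0.972), miR-296-3p (0.960) and miR-339-5p (0.951). Their GC content was 65.2%, 68.2% and 65.0%, above that of miR-127-3p at 59.1%. Without NPC replicate 1, where all 3 were highest, r was 0.877, 0.850 and 0.894. Those most like miR-434-3p were miR-381-3p of the same region (r = 0.892), miR-30c-5p (0.887) and miR-148a-5p (0.872), with GC contents of 45.5%, 41.7% and 40.9%, and without NPC replicate 1 r was 0.563, 0.504 and 0.519. These names were picked as the highest of 163 correlations, and the libraries share depth and the GC trend, so r is a description.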

How the data were processed

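Small RNA libraries from exosomes of rat nucleus pulposus cells and progenitor cells (4 each) were made with a TruSeq small RNA kit, per the labels' protocols. The submitters' processing notes name CASAVA 1.8. An aligner, a miRBase version or a genome build was not given in the sources used here. Per the file headers, the deposited values are estimated counts for each miRNA row, of which 82.3% of values above 0 were whole, and a scaled signal of the authors that equalled the count times 1 factor per library.

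Titles gave each library's group and replicate number. Counts were summed per mature name, rounded, filtered with filterByExpr, scaled by TMM and tested with edgeR 4.0.16 in R 4.3.3 (two-sided quasi-likelihood test, group as the only term, Benjamini-Hochberg over 390 names, threshold 0.05). Log2 CPM used a prior count of 2. Arm ratios were tested by exact permutation with Python 3.11.15 and numpy 2.4.6. Other tools were limma 3.58.1, DESeq2 1.42.0, pandas 2.3.3, scipy 1.17.1 and matplotlib 3.10.9. Both tests were first tested on simulated data. Library totals of 329011 to 1416940 counts limit the precision of low miRNAs.

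Deviations from the group means correlated between same-numbered libraries, with r of 0.565, 0.116, 0.366 and 0.243 for numbers 1 to 4, while r between differently numbered libraries ran from -0.483 to 0.355. All 4 exceeded 0.1, but r between NPC replicate 4 and NPPC replicate 2 was 0.355, above the values for numbers 2 and 4. A pairing by number is thus an uncertain hint from the data and not a stated batch. The main tests were unpaired, and the fit with a replicate block is given as an alternative. The alternatives were other scalings, filters, tools, rows in place of sums, rat names only, the block and each library left out. The authors' scaling, a GC correction (loess per library on GC percent, span 0.75) and leaving out both libraries numbered 1 were added after the data were seen. Members and lists were chosen with earlier results of these data known. The text names all members, the 4 most abundant of the other list and, for miR-127-3p and miR-434-3p, the 3 names most like each.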

Additional observations from a re-analysis of the deposited data

Results flagged for a closer look

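In 2 of 25 sets of 4 libraries a single library lay far outside the rest, and about 1 set in 20 does so by chance. Both times it was NPC replicate 1. miR-136-3p stood there at 72.4 CPM, with the other NPC libraries at 292 to 327 CPM. The log2 ratio of the arms of miR-127 was 5.86 there, with the other NPC libraries at 4.25 to 4.44. In that library miR-127-3p (GC 59.1%) stood 0.73 above the mean of the other NPC libraries on the log2 CPM scale, and miR-127-5p (GC 54.5%) stood at -0.79. The part of GC content in these values was not tested.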

How the results depend on the processing

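Over 21 alternatives the 8 members gave 165 values, of which 152 kept their direction, 13 reversed and 0 passed the threshold, with adjusted p from 0.195 to 0.993. Of the reversed values, total count scaling gave -0.040 for miR-431, -0.085 for miR-434-3p and -0.036 for miR-434-5p, and lowered the median of all names from -0.038 to -0.29. The GC correction gave 0.025 for miR-127-3p, 0.024 for miR-127-5p, -0.023 for miR-136-3p and -0.15 for miR-434-3p. Without NPC replicate 1 miR-434-3p was -0.069 and miR-434-5p -0.026, without both libraries numbered 1 they were -0.010 and -0.040, miR-434-5p was -0.11 without NPC replicate 3, and miR-434-3p was -0.0026 with rat names alone. With a library left out miR-434-3p ran from -0.069 to 0.31 and miR-434-5p from -0.11 to 1.10. The number of all names past the threshold (1) was 8 without a filter, 7 with DESeq2, 0 with the replicate block, 0 with rows as deposited, 42 without both libraries numbered 1, and 0 to 1 with a library left out. Unadjusted calls higher and lower were 16 and 25, against 21 and 17 under upper-quartile factors, 23 and 20 under the authors' scaling and 10 and 33 under total count scaling. The arm difference of miR-127 turned to 0.35 without both libraries numbered 1 and ran from -0.20 to 0.34 with a library left out, 0.060 without NPPC replicate 4. That of miR-136 ran from -2.84 to -1.36, and that of miR-434 from -1.02 to 0.055. At -2.84 the exact adjusted p was 0.0857, the lowest that the setting allowed with the other hairpins' p as they were. In the replicate block of sign flips over pairs the exact p of the 3 arm differences was 1, 0.25 and 0.625 for miR-127, miR-136 and miR-434, and the block changed no member's call. With so few pairs the sign flips cannot give a p under 0.05, so they decide nothing about the arms. Members' shares of counts ran from 0.346% to 0.509% in NPC and 0.306% to 0.344% in NPPC with a library left out. The cause of each reversal was not tested.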
